A study of Mus musculus with 24 samples.

Results

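De novo lipogenesis, the making of fatty acids from acetyl-CoA, was followed through 10 genes in the livers of mice on 3 high fat diets. The genes were Fasn, Acaca, Acacb, Acly, Acss2, Me1, Thrsp, Pnpla3 and the transcription factor genes Srebf1 and Mlxipl, out of 18820 genes with a probe set of their own on the array. Each was listed by symbol and was read from the probe set that matches a single gene and has the highest mean. For Acaca and Me1 a further such probe set was present, and all 10 had a mean signal over 20.

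The 24 livers came from male mice of 4 to 6 months on a C57BL/6J background, 8 per diet, each mouse hybridized to an array of its own. Partially hydrogenated soy oil was the fat of the Trans diet. A blend of canola and palm olein oil took its place in the Cis diet, as cocoa butter did in the Saturated diet. The diets were fed for 7 weeks and supplied 45% of energy as fat. No group on a low fat diet was part of the comparison, so each difference is between high fat diets. RNA abundance was measured on the Affymetrix Mouse Gene 1.1 ST array and is given as log2 signal, in which 1 unit is a doubling.

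In this pathway ATP citrate lyase (Acly) and acetyl-CoA synthetase (Acss2) supply acetyl-CoA, acetyl-CoA carboxylase (Acaca, and Acacb at the mitochondrion) turns it into malonyl-CoA, and fatty acid synthase (Fasn) builds the chain with NADPH, part of which comes from malic enzyme (Me1). The transcription factor SREBP1c, from Srebf1, is known to raise these genes in the fed liver with insulin, and ChREBP, from Mlxipl, does so with glucose. Thrsp and Pnpla3 are targets of the same factors, the first encoding a nuclear protein tied to lipogenesis and the second a lipid droplet protein. The livers were whole tissue, so fewer cells of a type and less RNA per cell cannot be told apart.

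The start-site windows of 5 genes are shown to set the 4 genes that hold both sequence elements linked to SREBP (Fasn, Acss2, Pnpla3 and Srebf1) beside Mlxipl, the gene of the other factor. Acaca and Acly had neither element in their windows, and Srebf1 had both only in the window shown. The Acaca window starts at 84195188 on chromosome 11, inside the gene, whose first base is at 84129635. The windows of Acacb and Fasn, every Srebf1 window and a further window of Me1 and of Mlxipl also lie inside the span of their gene. The Pnpla3 window runs past the first base of its gene, at 84167776. Whether the elements bear on how the genes varied across livers was not tested. Sequences are the 250 bases before a RefSeq transcription start in GRCm38.p6, 5′ to 3′ on the strand of the gene. Capitals mark TCACCC, a core of sterol regulatory elements, CCAAT (read as ATTGG on the other strand), and the E-box CACGTG. The windows are chr11:120824548-120824797, minus strand (Fasn), chr2:155517793-155518042, plus strand (Acss2), chr15:84167566-84167815, plus strand (Pnpla3), chr11:60210472-60210721, minus strand (Srebf1), and chr5:135089640-135089889, plus strand (Mlxipl).
Fasn: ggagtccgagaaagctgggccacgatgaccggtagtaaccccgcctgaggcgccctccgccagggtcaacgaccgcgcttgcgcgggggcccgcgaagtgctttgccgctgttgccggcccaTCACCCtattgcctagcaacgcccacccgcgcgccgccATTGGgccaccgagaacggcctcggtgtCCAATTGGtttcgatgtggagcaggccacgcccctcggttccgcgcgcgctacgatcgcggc
Acss2: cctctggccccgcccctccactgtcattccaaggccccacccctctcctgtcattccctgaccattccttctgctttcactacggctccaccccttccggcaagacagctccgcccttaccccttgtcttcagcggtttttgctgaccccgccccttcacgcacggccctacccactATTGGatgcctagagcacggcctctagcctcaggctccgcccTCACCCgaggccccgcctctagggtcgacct
Pnpla3: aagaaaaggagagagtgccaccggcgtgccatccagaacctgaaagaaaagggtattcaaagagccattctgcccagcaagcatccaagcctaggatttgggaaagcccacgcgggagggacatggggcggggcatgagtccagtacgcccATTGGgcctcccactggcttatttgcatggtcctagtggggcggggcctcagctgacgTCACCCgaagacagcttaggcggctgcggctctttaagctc
Srebf1: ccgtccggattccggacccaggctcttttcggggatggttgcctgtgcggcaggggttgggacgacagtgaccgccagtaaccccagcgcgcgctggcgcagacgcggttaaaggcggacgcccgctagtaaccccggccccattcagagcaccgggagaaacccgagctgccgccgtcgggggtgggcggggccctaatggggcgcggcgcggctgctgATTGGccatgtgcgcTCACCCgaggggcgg
Mlxipl: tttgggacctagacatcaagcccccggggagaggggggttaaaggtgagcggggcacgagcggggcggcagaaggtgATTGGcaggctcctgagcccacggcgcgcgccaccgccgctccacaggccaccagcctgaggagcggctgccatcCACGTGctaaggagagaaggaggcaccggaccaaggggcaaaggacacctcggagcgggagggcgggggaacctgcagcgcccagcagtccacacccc

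TCACCC on either strand occurred in 5 of the 14 windows of the 10 genes (1 each of Fasn, Acss2, Me1, Srebf1 and Pnpla3), and in 13.8% of all 32841 windows of the same length. Its first base lay 128 bases before the start in Fasn, 31 in Acss2, 41 in Pnpla3 and 15 in Srebf1. CCAAT was in 9 of the 14 windows, those of 8 genes, and in 33.9% of all windows. Both together were in 4 of the 14 windows (Fasn, Acss2, Srebf1 and Pnpla3) and in 4.26% of all windows. In Fasn a CCAAT and an ATTGG overlap. CACGTG was in 1 of the 14 windows (Mlxipl, 98 bases before the start) and in 6.02% of all windows. Me1, Srebf1 and Mlxipl have several start sites among the 14 windows, and for Srebf1 and Mlxipl the window with the most matches is shown. A match describes letters in a window and is not evidence of binding.

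No difference between diets in these 10 genes stood out from the spread between livers. None passed limma's test at an adjusted p under 0.05 in any comparison. For Trans against Saturated, 0 of the 10 genes passed, beside 3 of 35556 probe sets (0.00844%); for Trans against Cis, 0 passed, beside 1 probe set (0.00281%); and for Cis against Saturated, 0 passed, beside 0 probe sets (0%). Tukey's post hoc test with the same adjustment also called 0 of the 10. At an unadjusted p under 0.05 no gene passed for Trans against Saturated, where 7.32% of all probe sets did, and none for Trans against Cis, where 6.16% did. For Cis against Saturated 1 gene was higher (Srebf1; 3.3% of all probe sets) and 1 lower (Acss2; 3.27%), where 6.57% of probe sets passed in either direction. The means leaned downward: for Trans against Saturated the mean was lower in 9 of the 10 genes, for Trans against Cis in 7, and for Cis against Saturated in 7. As 8 of the 10 varied together across livers (median Pearson's r 0.841), these are not counts of independent genes. The median log2 difference over the 10 was −0.22, −0.10 and −0.12 in these 3 comparisons, where the median over all probe sets was 0.00 in each.

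These values moved with single livers. Without Saturated replicate 2 the medians were −0.37, −0.10 and −0.24, with 0 of the 10 genes called in each, beside 0.045%, 0% and 0.00844% of all probe sets. At an unadjusted p under 0.05 in limma, 4 genes were then lower in Trans than in Saturated livers (Fasn, Acaca, Acly and Acss2), beside 3.81% of all probe sets. In Cis, 3 were lower than in Saturated livers (Acacb, Acly and Acss2), beside 3.27%, and Srebf1 was higher (3.47%). Saturated replicate 2 was singled out from these same data, being among the 3 lowest livers for 8 of the 10 genes. Leaving it out raises the Saturated mean of those 8, so these counts are no support for a difference. Without Cis replicate 7 the median for Trans against Cis was −0.26, and without Saturated replicate 8 the medians for Trans and for Cis against Saturated were −0.14 and −0.05.

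**Figure D1:**
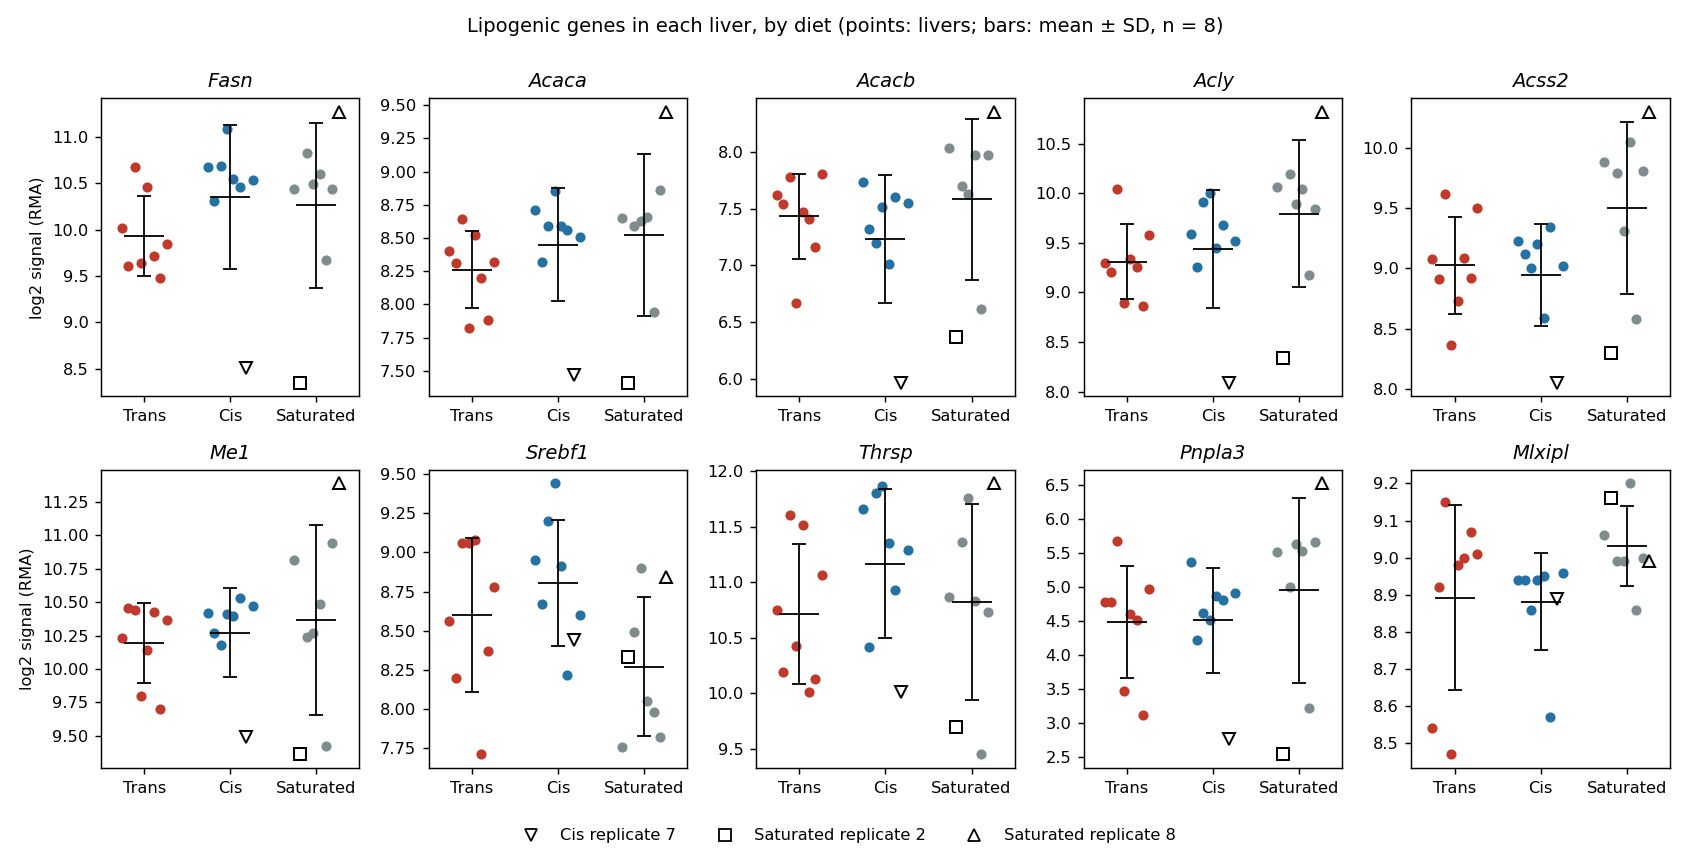
Log2 signal (y axis) of the 10 genes in every liver, by diet (x axis; 8 livers each); bars are the mean ± SD, and open symbols pick out Cis replicate 7, Saturated replicate 2 and Saturated replicate 8. The diets overlap in every panel, and these 3 livers hold the lowest and highest values of every gene except Srebf1, Mlxipl and the lowest value of Thrsp.

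Acss2, which makes acetyl-CoA from acetate, and Acly, which makes it from citrate, had the most negative differences from Saturated livers among the genes of fatty acid synthesis. Acss2 ran from 8.36 (median 9.0) to 9.62 in Trans livers, from 8.05 (9.07) to 9.34 in Cis livers, and from 8.30 (9.80) to 10.30 in Saturated livers. The diets overlapped, though none of the 8 Cis livers reached the Saturated mean. The log2 difference was −0.48 (SE 0.25) for Trans against Saturated and −0.56 (95% interval −1.08 to −0.03) for Cis against Saturated, with limma adjusted p values of 0.713 and 0.743. Between Trans and Cis it was 0.08 (SE 0.25), and −0.05 without Cis replicate 7.

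Acly ranged over 8.86, 9.28 and 10.04 (lowest, median and highest) in Trans livers, 8.09, 9.55 and 10.003 in Cis livers, and 8.34, 9.97 and 10.82 in Saturated livers. Only 1 of the 8 Trans livers lay above the Saturated mean. The differences were −0.49 (SE 0.28; limma adjusted p 0.746) for Trans against Saturated, −0.13 for Trans against Cis and −0.36 for Cis against Saturated. Leaving out Saturated replicate 2 moved the first to −0.69 (adjusted p 0.459), the lowest adjusted p of any of the 10 genes when any single liver was left out.

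Fasn, whose product assembles palmitate, had its lowest, median and highest values at 9.48, 9.79 and 10.68 in Trans livers, at 8.51, 10.55 and 11.08 in Cis livers, and at 8.35, 10.47 and 11.27 in Saturated livers. The Trans livers lay within the range of both other diets. The log2 difference was −0.33 (SE 0.34; limma adjusted p 0.9) for Trans against Saturated and −0.42 (SE 0.34; 0.889) for Trans against Cis. For Cis against Saturated it was 0.09, but −0.18 without Saturated replicate 2 and 0.36 without Cis replicate 7, so its direction rests on single livers.

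The carboxylases, which make malonyl-CoA, were no clearer. Acaca, the cytosolic form, had values of 7.82, 8.32 and 8.64 in Trans livers, 7.47, 8.57 and 8.85 in Cis livers, and 7.41, 8.64 and 9.45 in Saturated livers. Only 1 of the 8 Trans livers exceeded the Saturated mean, with a difference of −0.26 (SE 0.22; limma adjusted p 0.853), and the further Acaca probe set gave −0.45. For Cis against Saturated the Acaca difference was −0.08, −0.24 without Saturated replicate 2 and 0.06 without Cis replicate 7. Acacb, the form at the mitochondrion whose malonyl-CoA inhibits fatty acid import, had values of 6.67, 7.51 and 7.80 in Trans livers, 5.97, 7.42 and 7.73 in Cis livers, and 6.37, 7.84 and 8.35 in Saturated livers. It was the only enzyme besides Acss2 with a higher mean in Trans than in Cis livers, at 0.20 (SE 0.27; limma adjusted p 0.952), which was 0.02 without Cis replicate 7.

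Me1, a source of NADPH, differed least between diets among the 10 genes as a share of its variance (2.32%, where the median gene was at 8.85%). Its values were 9.70, 10.30 and 10.46 in Trans livers, 9.49, 10.40 and 10.53 in Cis livers, and 9.36, 10.38 and 11.39 in Saturated livers. The Saturated livers spanned both ends, and the Cis against Saturated difference of −0.10 was −0.24 without Saturated replicate 2 and 0.05 without Saturated replicate 8.

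**Figure D2:**
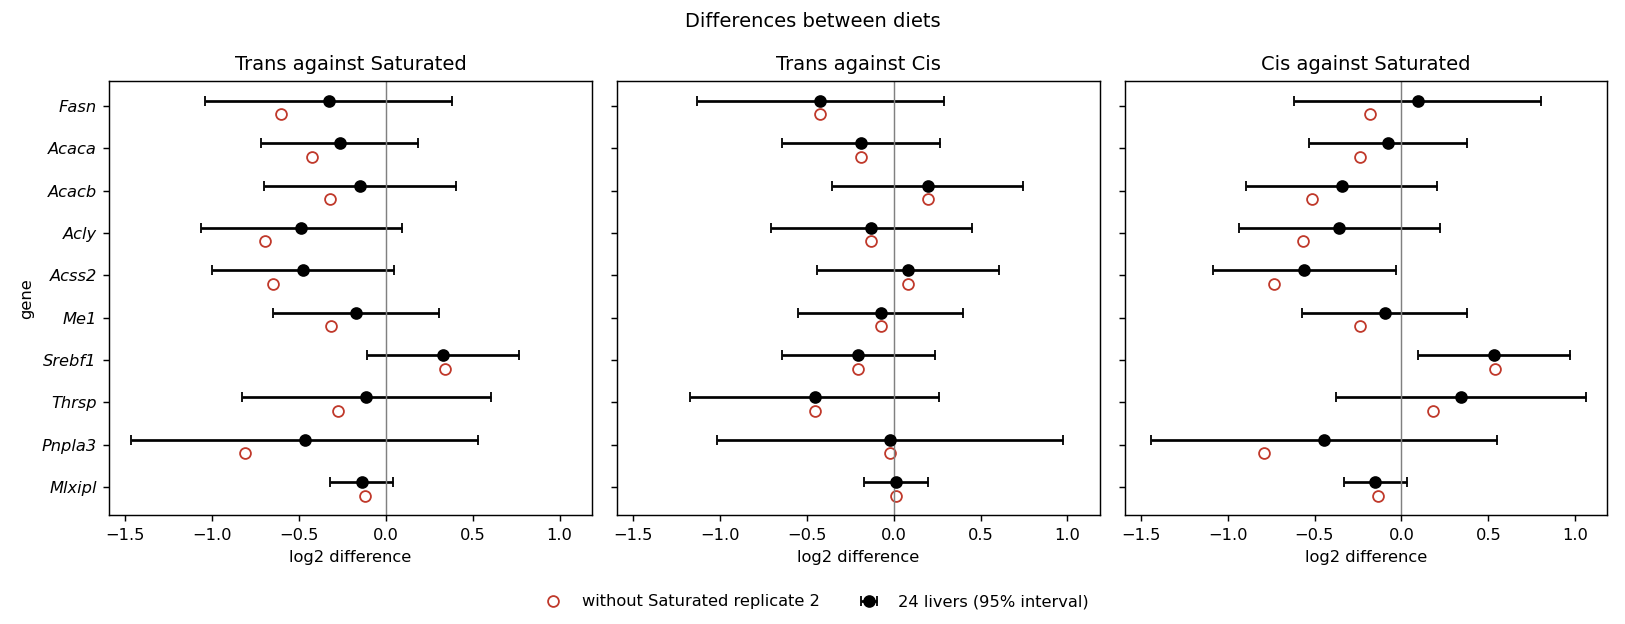
Log2 difference (x axis) of each gene (y axis) in Trans against Saturated, Trans against Cis and Cis against Saturated; filled points are the limma estimates over 24 livers with 95% intervals, open points the estimates without Saturated replicate 2. All intervals include 0 except those of Srebf1 and Acss2 in Cis against Saturated.

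Srebf1 and Acss2 had the largest share of their variance between diets, 21.6% and 19.5%. Srebf1 alone of the 10 genes had its Trans mean above its Saturated mean. Its lowest, median and highest values were 7.71, 8.67 and 9.08 in Trans livers, 8.22, 8.79 and 9.44 in Cis livers, and 7.76, 8.19 and 8.90 in Saturated livers. In Cis, 7 of the 8 livers lay above the Saturated mean, and the log2 difference was 0.53 (95% interval 0.09 to 0.97; limma adjusted p 0.684). With any single liver left out it ran between 0.44 and 0.62. For Trans against Saturated it was 0.33 (SE 0.21; limma adjusted p 0.791), and for Trans against Cis −0.20 (SE 0.21; 0.925).

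Mlxipl was the least variable of the 10. It ran between 8.47 and 9.15 in Trans livers (median 8.99), between 8.57 and 8.96 in Cis livers (8.94), and between 8.86 and 9.20 in Saturated livers (9.0). None of the 8 Cis livers exceeded the Saturated mean, and the difference was −0.15 (SE 0.09; limma adjusted p 0.825). It was −0.14 (0.788) for Trans against Saturated. Between Trans and Cis it was 0.01, −0.03 without Cis replicate 6 and 0.07 without Trans replicate 4. Stellate cell markers had a median diet-centred r of −0.55 with Mlxipl over the 9 measured, of which 2 had a mean signal under 20, but the list was split. Of the 9, 6 had a negative r, while Reln (0.321), Lrat (0.207) and Hand2 (0.071) had a positive one. Their summed signal ran between 1148 and 1619 in Trans, 1100 and 1367 in Cis, and 1095 and 1474 in Saturated livers, and their part in the Mlxipl values was not tested.

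Thrsp had values of 10.01, 10.59 and 11.61 in Trans livers, 10.01, 11.32 and 11.87 in Cis livers, and 9.45, 10.85 and 11.89 in Saturated livers. Its mean was highest in Cis, with differences of −0.45 (SE 0.35; limma adjusted p 0.873) for Trans against Cis and 0.34 (SE 0.35; 0.901) for Cis against Saturated. Trans against Saturated gave −0.11, and 0.04 without Saturated replicate 8. Pnpla3 had the widest spread, with values of 3.12, 4.70 and 5.68 in Trans livers, 2.77, 4.71 and 5.37 in Cis livers, and 2.54, 5.53 and 6.53 in Saturated livers. In 2 livers of each diet its signal was under 20, which is low on this array. Trans against Saturated gave −0.47 (SE 0.48; limma adjusted p 0.9) and Cis against Saturated −0.45 (SE 0.48; 0.91). Trans against Cis was −0.02, −0.27 without Cis replicate 7 and 0.17 without Trans replicate 7.

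The variation among livers on the same diet was the main feature of these genes. With Mlxipl left aside, the within-diet SD of the other 9 was higher than that of 96.9% to 99.8% of 8298 genes with a mean signal over 20, whose median SD was 0.17. That of Mlxipl was higher than 50.1% of them. Across all livers Fasn spanned 7.58-fold, Acly 6.64-fold and Pnpla3 15.9-fold, against 1.65-fold for Mlxipl. A pair of livers on different diets sat at the bottom: Saturated replicate 2 and Cis replicate 7 were each among the 3 lowest of the 24 for Fasn, Acaca, Acacb, Acly, Acss2, Me1, Thrsp and Pnpla3. Saturated replicate 6 was close to them, at ranks 1 (Thrsp) to 6 (Fasn) of 24 from the lowest for these 8 genes. Saturated replicate 8 was the highest of all for the same 8 genes. In Saturated replicate 2, Srebf1 stood at 8.33 and Mlxipl at 9.16, which were ranks 8 and 23 of 24 from the lowest. Summed hepatocyte markers were between 39610 and 43060 in Trans, 40160 and 42830 in Cis, and 40520 and 45310 in Saturated livers, and 41490 in Saturated replicate 2. Adipocyte markers summed to 75.7 to 108 in Trans, 66.8 to 96.6 in Cis and 61.5 to 96.8 in Saturated livers, with 6 of the 7 under a mean signal of 20. The median correlation with the other arrays was 0.984 for Saturated replicate 2 and 0.979 for Cis replicate 7, in a range of 0.975 to 0.986. The part of these measures in the result was not tested.

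**Figure D3:**
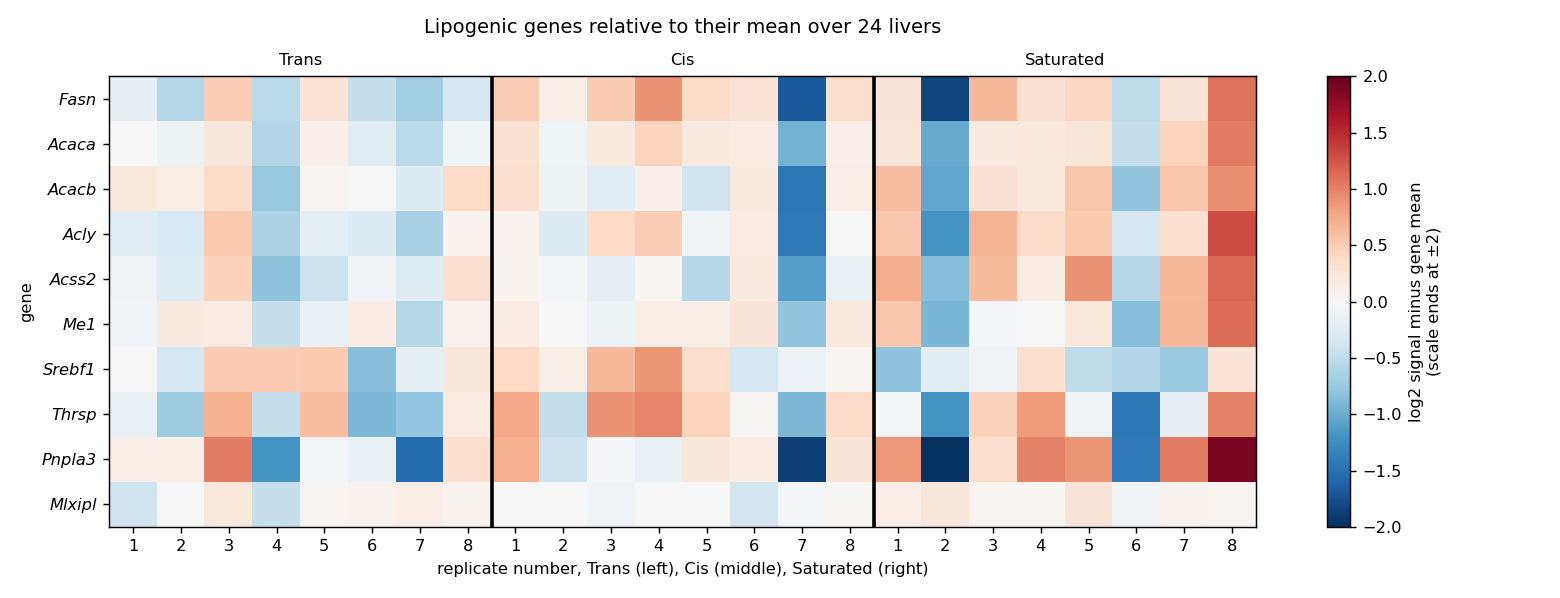
Log2 signal of the 10 genes (rows) relative to each gene's mean over 24 livers (columns, by diet and replicate number); red is above the mean, blue below. Cis replicate 7 and Saturated replicate 2 are blue and Saturated replicate 8 red for the same 8 genes, while Srebf1 and Mlxipl follow other patterns.

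The 8 genes other than Srebf1 and Mlxipl rose and fell together from liver to liver, a grouping made after the values were seen. Over their 28 pairs Pearson's r ran between 0.505 and 0.937 with a median of 0.841, and Spearman's rho between 0.38 and 0.934. Because the weakly related genes were set aside first, the count that follows describes the grouping and is no separate support for it. All 28 pairs passed a permutation test at a Benjamini-Hochberg adjusted p under 0.05 over the 45 pairs of the 10 genes, in Pearson's r. In Spearman's rho Me1 with Thrsp did not (rho 0.38, adjusted p 0.0969). For Acaca with Me1, r was 0.902 and rho 0.711, with adjusted p values of 2.25e-05 and 0.000315. A raw p of 1e-05 is the smallest that 100000 permutations can give, and the adjusted p of 2.25e-05 rests on it.

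The relation did not rest on the diets. After each gene was centred on its diet mean, the 28 r values ran between 0.623 and 0.958. Within the 8 livers of a diet they ran between 0.252 and 0.929 in Trans, 0.56 and 0.99 in Cis, and 0.76 and 0.987 in Saturated livers. Without the 2 livers farthest from the median of the first gene of a pair, r ran between 0.377 and 0.907. Which 2 livers these were differed between pairs. For each of the 8 genes, 4.8% to 6.27% of 8288 genes outside the list had a size of diet-centred r over 0.5.

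In RNA, with SREBP1 protein not measured on these arrays, Srebf1 was less closely related to the rest. Its 9 pairs with the other genes had a median r of 0.0858, and of 0.207 after diet centring. Within diets the median was 0.143 in Trans, 0.537 in Cis and 0.226 in Saturated livers. With Fasn, r was 0.592 in Trans, 0.564 in Cis and 0.239 in Saturated livers. Over all livers, by Pearson's r, only Thrsp passed, with r 0.67 (adjusted p 0.000658) and rho 0.708 (adjusted p 0.000213). This held in Trans (r 0.789), Cis (0.756) and Saturated livers (0.606), and without Trans replicate 6 and Cis replicate 4 (0.598). With Fasn, r was 0.356 (adjusted p 0.131) and rho 0.494 (adjusted p 0.0253), so that only the ranks passed. With Acss2, r was −0.148 (adjusted p 0.578) and with Me1 −0.029 (0.894). No pair with Mlxipl passed, and r ran between −0.168 and 0.324.

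**Figure D4:**
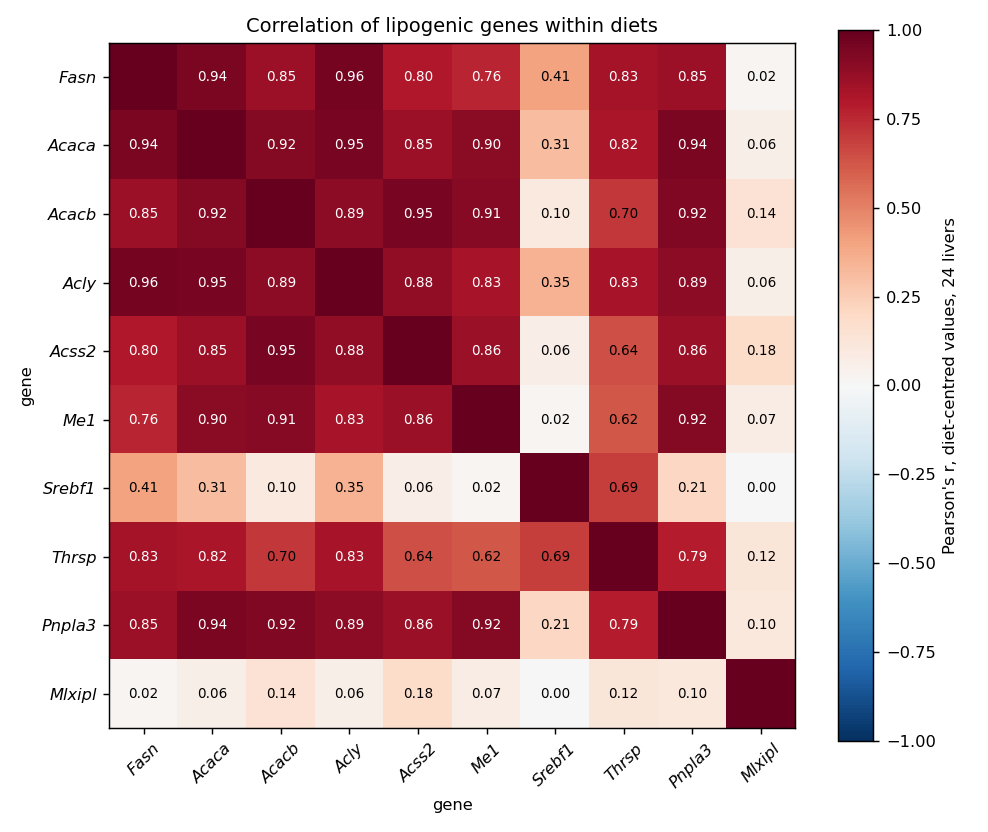
Pearson's r over 24 livers between each pair of the 10 genes, after each was centred on its diet mean; both axes list the genes. The 8 genes other than Srebf1 and Mlxipl form a block between 0.62 and 0.96, and Srebf1 joins it only through Thrsp, at 0.69.

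Genes outside the list that were most like the mean of the 10, by r of diet-centred values over 24 livers and 8288 genes, were led by Elovl6 (0.932) and Gpam (0.925). ELOVL6 lengthens palmitate and GPAM starts triglyceride synthesis, the next steps for a new fatty acid. They were followed by Tlcd1 (0.868), Chrna4 (0.863), Mttp (0.842), Sc5d (0.838), Hsd17b7 (0.831), Pstpip2 (0.831), Rnf103 (0.817) and Pklr (0.803). Mttp loads lipid onto apolipoprotein B, Sc5d and Hsd17b7 act in cholesterol synthesis, and Pklr is the liver pyruvate kinase. Only 12 genes (0.145%) had an r over 0.8, and the median gene was at 0.03. Elovl6 was also the closest to Fasn (0.916), Acaca (0.971), Thrsp (0.867) and Pnpla3 (0.892). Gpam was closest to Acly (0.938), Chrna4 to Acacb (0.908) and Acss2 (0.923), the transketolase gene Tkt to Me1 (0.884), Rdx to Mlxipl (0.804) and Klf13 to Srebf1 (0.909). These likenesses are descriptions and carry no test.

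Among lists of related genes, the median r with a gene differed by role. For the 17 cholesterol synthesis genes measured it was between 0.642 and 0.795 with the enzyme genes Fasn, Acaca, Acacb, Acly, Acss2 and Me1, highest with Acss2, and −0.02 with Srebf1. For the 9 genes of NADPH and carbon supply it was between 0.667 and 0.735 with the same 6 genes. For 14 insulin and feeding genes, whose directions differ, the size of r had a median between 0.202 and 0.339 with the 6. The median over all genes was between 0.173 and 0.187. With Srebf1 the median for these 14 was higher, at 0.407, and 5 were over 0.5. Over all genes the median with Srebf1 was 0.224, and 11.4% were over 0.5. Cholesterol synthesis genes also had lower means in both unsaturated diets. At an unadjusted p under 0.05 in limma, 17 of 17 were lower in Trans than in Saturated livers (median −0.73), beside 3.54% of all probe sets. In Cis 14 of 17 were lower (median −0.57), beside 3.27%. None was called, beside 0.00844% and 0% of all probe sets. Without Saturated replicate 2, a liver singled out from these same data, 6 were called in Trans against Saturated, beside 0.045% of all probe sets. Idi1 was at −1.19 (SE 0.26; limma adjusted p 0.202) and Fdft1 at −0.80 (SE 0.18; 0.202) for Trans against Saturated over 24 livers.

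The 8 measured SREBP processing genes were split. In Trans against Saturated the mean was higher for 4, among them Insig2 (0.21, SE 0.26), and lower for 4 (median −0.06). The lower ones were Insig1 (−0.31, SE 0.20), Rnf139 (−0.15, SE 0.07), and Scap and Srebf2, given below. In Cis against Saturated it was higher for 3 and lower for 5. Scap, which escorts SREBP to the Golgi for cutting, differed by −0.28 (SE 0.07, limma adjusted p 0.281) in Trans against Saturated and by −0.26 (0.539) in Cis against Saturated. Srebf2, the factor for cholesterol synthesis, differed by −0.26 (SE 0.11; 0.625) and −0.25 (0.742). Of the 9 measured ChREBP targets, the mean was lower in Trans for 8 against Cis (median −0.22, beside 0.00 over all probe sets). G6pc was at −0.51, Tkfc at −0.30 and Gpd1 at −0.22, and Txnip was higher at 0.29. At an unadjusted p under 0.05 in limma 4 were lower and 1 higher, where 6.16% of all probe sets passed in either direction. None was called, beside 0.00281% of all probe sets. The 12 genes listed for the control of acetyl-CoA carboxylase and its product had a median of −0.02 in Trans against Saturated. None passed at an unadjusted p under 0.05 in limma in any comparison.

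Circadian clock genes were prominent among those like Srebf1. Per2 (0.859) and Wee1 (0.859) came next after Klf13, and the 12 of 14 listed clock genes that were matched were then set against it. Because these values prompted the choice, what follows is a description with no test. Of the repressor genes, Pearson's r was 0.826 for Per2, 0.804 for Per3, 0.724 for Per1, 0.815 for Ciart and 0.674 for Cry2. It was 0.652 for Nr1d2 and 0.419 for Bhlhe41, but −0.364 for Cry1. For Tef it was 0.733. The activator genes went the other way, with −0.809 for Clock, −0.761 for Arntl and −0.758 for Npas2. Spearman's rho was 0.826 for Per2, −0.827 for Clock and −0.354 for Cry1.

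The relation with Per2 was found within Trans (r 0.86), Cis (0.821) and Saturated livers (0.892), and without Trans replicate 6 and Cis replicate 4 (0.765). With Clock, r was −0.814, −0.724 and −0.973 within Trans, Cis and Saturated livers. Per2 itself ran between 3.86 and 6.34 in Trans livers (median 5.36), between 4.81 and 6.47 in Cis livers (5.64) and between 4.26 and 6.20 in Saturated livers (5.31), and was under a signal of 20 in 2 Trans livers and 1 Saturated liver. No clock gene passed between diets, with Per2 at −0.48 (SE 0.35; limma adjusted p 0.865) in Trans against Cis and 0.43 (SE 0.35; 0.884) in Cis against Saturated. By diet-centred values, the size of r over the 12 clock genes had a median of 0.773 with Srebf1 and 10 of 12 were over 0.5, where 11.4% of all genes were. With Thrsp the median was 0.419 and 4 were over 0.5, and with each of the other 8 genes the median was 0.197 or less and 0 were. The hour at which each liver was taken is not given in the sources used here.

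**Figure D5:**
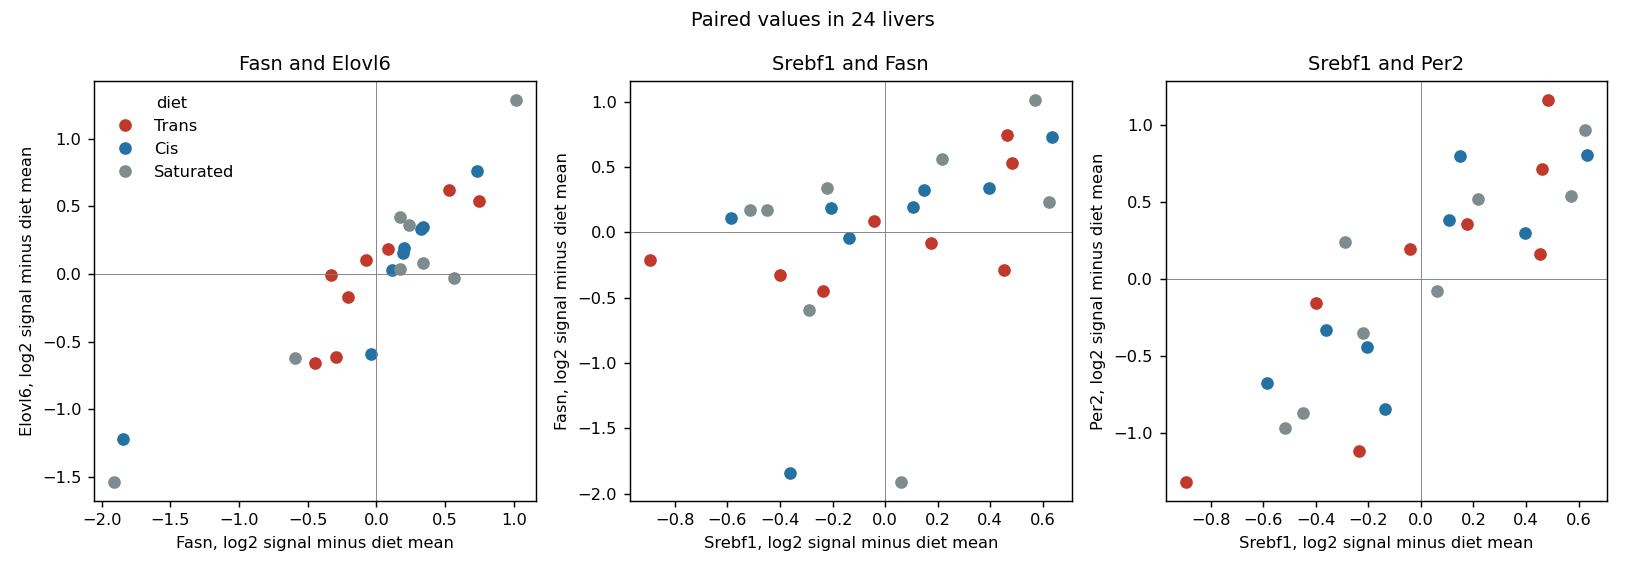
Diet-centred log2 signal in the 24 livers, coloured by diet: Fasn (x axis) with Elovl6 (y axis), Srebf1 with Fasn, and Srebf1 with Per2. Fasn and Elovl6 rise together (r 0.916), Srebf1 and Fasn are loosely related (0.405), and Srebf1 and Per2 rise together in every diet (0.859).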

How the data were processed

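Each of 24 livers (8 per diet) gave RNA for a single Affymetrix Mouse Gene 1.1 ST array. The deposited values are log2 signals that the authors computed with RMA, per the processing notes, 1 for each of 35556 probe sets and array. The methods define probe sets by gene ID, whereas the deposited table holds the array design's own IDs. The platform table gave 21218 probe sets a single gene, 1881 several and 12457 none. Array medians ran from 2.94 to 3.06, and every array was kept. The number of arrays limits the precision.

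In R 4.3.3, limma 3.58.1 fitted a mean per diet over all 24 livers and all probe sets (two-sided, Benjamini-Hochberg within a comparison, threshold 0.05). The methods' Tukey test was an alternative, beside other livers in the fit, variance models, low-signal filters (signal 20), a fold over 1.5, a replicate block, array weights, normalizations, probe set choices and each liver left out. Correlations used 100000 permutations in Python 3.11.15. The limma step was tested on simulated data.

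All 10 genes are named. In other lists at most 4 genes by smallest p, plus any that goes against the rest, and the 10 genes most like the mean of the 10, were named. Genes and lists were chosen with earlier results of these data known. Start-site sequences are from RefSeq.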

Additional observations from a re-analysis of the deposited data

Results flagged for a closer look

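In 30 groups of 8 livers (10 genes in 3 diets), a lone extreme liver was found 7 times; chance gives about 1 in 20 such groups. In 6 of them it was Cis replicate 7, the lowest Cis liver, set apart from the next by a share of the group's range of 0.7 for Fasn (8.51, next 10.31), 0.62 for Acaca (7.47, next 8.32), 0.593 for Acacb (5.97, next 7.01), 0.613 for Acly (8.09, next 9.26), 0.657 for Me1 (9.49, next 10.18) and 0.558 for Pnpla3 (2.77, next 4.22), all in log2 signal. These 6 genes are correlated, so the findings are not independent. The last was Mlxipl in Cis replicate 6, at 8.57 with the next liver at 8.86, a share of 0.742.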

How the results depend on the processing

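None of the 10 genes was called under any setting tried. Of 330 values of their differences under 11 alternatives, 329 kept direction and side of the threshold (lowest adjusted p 0.467), and Pnpla3 in Trans against Cis reversed with array weights (0.0034). With each liver left out in turn, 699 of 720 kept both and 21 reversed (lowest adjusted p 0.459). The reversals lay in ranges of −0.24 to 0.063 for Acaca, −0.18 to 0.36 for Fasn and −0.24 to 0.050 for Me1 in Cis against Saturated, of −0.046 to 0.18 for Acss2, −0.031 to 0.073 for Mlxipl and −0.27 to 0.17 for Pnpla3 in Trans against Cis, and of −0.31 to 0.041 for Thrsp in Trans against Saturated. Probe sets called over the whole array were few and unsteady. In Trans against Saturated (3) they were 0 with only the 2 diets in the fit and with Tukey's test, 1 with median centring, 5 with 1 probe set per gene, and 1 to 16 with a liver left out (16 without Saturated replicate 2). In Trans against Cis (1) they were 0 with only the 2 diets, signal over 20, Tukey's test and 1 probe set per gene, and 0 to 2 with a liver left out (2 without Saturated replicate 8). In Cis against Saturated (0) they were 0 to 3 with a liver left out. The cause was not tested.

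With the replicate number as a block, 5 probe sets were called in Trans against Saturated, 0 in Trans against Cis and 0 in Cis against Saturated, and no call among the 10 genes changed. Whether the number pairs the livers was not tested. Between diets, 10 of 24 same-number pairs correlated over 0.1, and 5 of 24 livers correlated best with their own number. The mean correlation was 0.0688 for the same number and −0.00958 for other numbers.

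Whole tissue on 8 arrays per diet limits the precision: the 95% interval for Fasn in Trans against Saturated ran from −1.04 to 0.38. Pnpla3 had a signal under 20 in 2 livers of each diet.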
